A study of Homo sapiens with 9 samples.

Results

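The aldo-keto reductases AKR1A1, AKR1B1, AKR1B10, AKR1C1, AKR1C2, AKR1C3 and AKR1C4 were followed on whole-genome arrays of DLD1 cells, a human colorectal adenocarcinoma line, after knockdown (Kd) of a nuclear lamin. The genes were found by the gene name printed for each probe, which gave 11 of 50238 probes and 6 of 31033 gene names, because AKR1C2 has no probe under its own name. They were selected on measured values: the higher signals of AKR1C1, AKR1C3 and AKR1B10 in Lamin A/C Kd were known when the list was drawn up. The contrasts that hold the Lamin A/C Kd arrays, with control and between the knockdowns, are therefore given for these genes as a description with no test. Each of the 9 arrays held Cy3-labeled RNA of 1 culture. The cultures were 3 controls without siRNA, 3 Lamin A/C Kd cultures and 3 with Lamin B2 Kd, both knockdowns made with 100 nM siRNA over 48 h, and the study describes them as independent biological replicates. No array came from cells given a control siRNA, so the effect of transfection cannot be told apart from that of the lost lamin, and all values come from 1 cell line.

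Aldo-keto reductases are soluble enzymes that use NADPH to reduce aldehydes and ketones to alcohols. AKR1A1 (aldehyde reductase) and AKR1B1 (aldose reductase, which turns glucose into sorbitol) are widely expressed, while AKR1B10 reduces retinal and reactive aldehydes and is known from the gut and from tumors. The AKR1C enzymes act on steroids and prostaglandins: AKR1C1 inactivates progesterone, AKR1C2 inactivates dihydrotestosterone, AKR1C3 forms testosterone and prostaglandin F, and AKR1C4 is the liver form. Several of these genes are textbook targets of NRF2, the transcription factor released from KEAP1 under oxidative or electrophilic stress.

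The AKR1C genes lie side by side on Chr.10 and their transcripts are close relatives, so the probe sequences decide what each signal can mean. Positions are those of the RefSeq table for GRCh38.p14: AKR1C1 at chr10:4963415-4983283, AKR1C2 at chr10:4987775-5018000, AKR1C3 at chr10:5048781-5107686 and AKR1C4 at chr10:5196837-5218949. AKR1B1 lies at chr7:134442350-134459239, AKR1B10 at chr7:134527567-134541412 and AKR1A1 at chr1:45550826-45570049. The AKR1C1 probe P220947 and the AKR1C3 probe P138541 (probes are given by the last part of their array identifier) overlap in homologous sequence, 5′ to 3′ with the bases that differ in capitals.
AKR1C1 P220947: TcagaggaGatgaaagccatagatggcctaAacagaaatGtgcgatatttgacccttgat
AKR1C3 P138541: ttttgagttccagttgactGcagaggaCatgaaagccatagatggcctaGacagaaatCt
Of the 41 shared positions 37 were the same, and the differences, counted from the 5′ end of the AKR1C1 probe, were T1G, G9C, A31G and G40C. P220947 and P257971 list transcripts of both AKR1C1 and AKR1C2, so their signal can come from either gene, whereas P152968 lists an AKR1C1 transcript alone. Its sequence is shown because a single base tells it from AKR1C2 in the stretch that can be compared.
AKR1C1 P152968: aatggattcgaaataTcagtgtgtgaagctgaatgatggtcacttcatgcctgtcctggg
The first 21 bases of P152968 matched the AKR1C1 transcript without a mismatch from base 30 after its start site, and against AKR1C2 the first 29 bases held 1 difference, T16C (the capital). P152968 thus reads the 5′ end of the transcript. No file gives the relative binding of these probes to each paralog, so the AKR1C signals are not fully separate measurements.

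The closeness of the AKR1B genes is of the same kind. Probe P129341 of AKR1B10 and the array probe for AKR1B15, a gene next to AKR1B10 at chr7:134549110-134579869, shared 40 of 43 overlapping bases, with C3T, A16G and A21T from AKR1B10 to AKR1B15 (capitals mark the differences).
AKR1B10 P129341, first 43 bases: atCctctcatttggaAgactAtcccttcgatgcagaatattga
AKR1B15 probe, the same stretch: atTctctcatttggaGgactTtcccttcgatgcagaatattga
Of the qRT-PCR primers listed by the study, 1 of the AKR1C3-A pair and 1 of the AKR1B10-A pair meet the same limit. The forward primer of the AKR1C3-A pair, shown with the base that differs in capitals, matched a site in the AKR1C1 probe P257971 with 1 mismatch, G12A from primer to probe.
AKR1C3-A forward primer: gcatgaggtctGccagaag
site in AKR1C1 P257971: gcatgaggtctAccagaag
The reverse primer of the AKR1B10-A pair, ttctgcatcgaagggaaagt, matched the AKR1B15 probe with 0 mismatches on the opposite strand and the AKR1B10 probe P129341 with 1. The other primers of these pairs and both primers of the AKR1C3-B and AKR1B10-B pairs had no close site in the probes. Sites outside the probes were not searched. The study reports that its qRT-PCR candidates, with an A and a B primer set, changed in the array direction. No RT-PCR values are among the files analysed here.

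Signals are given as log2 of the processed intensity minus the array median, so that 0 is the median spot of an array, and levels of different probes are not compared with one another. Where all arrays of a group are said to lie above or below those of another, this describes single probes. The share of all probes that do so was counted only for Lamin A/C Kd above Lamin B2 Kd (21%). The share of spots well above background ran from 65.6 to 74.1% over the arrays, 0 spots were saturated, and replicates correlated over all probes with r from 0.977 to 0.996, the lowest values being in Lamin B2 Kd. Lamin B2 Kd replicate 3 alone was on a separate slide. LMNA, the target of the Lamin A/C siRNA, read 8.79, 8.79 and 8.91 in control and 4.84, 5.14 and 5.03 in Lamin A/C Kd (log2 fold change −3.83 ± 0.22, SE), and LMNB2 read 5.44, 5.51 and 5.74 in control and 3.10, 3.48 and 3.15 in Lamin B2 Kd (−2.32 ± 0.14), as the labels state. LMNB1 stood at −0.99 ± 0.40 in Lamin A/C Kd (limma adjusted p = 0.168) and −0.64 ± 0.40 in Lamin B2 Kd (0.348). In Lamin A/C Kd LMNB2 stood at −0.36 ± 0.14 (0.155), and in Lamin B2 Kd the LMNA probes at −0.29 (0.43) and −0.38 (0.405). Colon epithelial markers were present: TACSTD1 (the older name of EPCAM), CDH1, CDX2, KRT8, KRT18 and KRT19 had a probe above background on all 9 arrays, and among the 9 markers with a probe VIL1 alone met the call rule, on the lower side in Lamin B2 Kd (−1.06, adjusted p = 0.0340). KRT20 was above background on all 9 arrays but below the array median (−1.84 to −0.38). CDX1 was above background on 7 of 9 arrays on its best probe. Of 7 markers of blood, endothelial, stromal, liver and glial cells 3 passed the filter on detection (CD3E, PECAM1 and GFAP) and 0 met the call rule in either knockdown. The call rule, which follows the criterion of the study, required of at least 1 probe of a gene a 2-fold difference and an unadjusted limma p under 0.05.

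AKR1C3 was 4.55-fold and AKR1B10 4.16- and 3.78-fold higher in Lamin A/C Kd than in control, and the AKR1C1 probes tested ran from 1.68- to 5.97-fold. AKR1C4 was not above background on any array. By the call rule 3 of the 5 genes tested were called higher in Lamin A/C Kd, against 1.21% of all gene names called higher and 2.94% called in either direction, a contrast that chose them. AKR1C1 was counted here through probes shared with AKR1C2. Its probe that lists AKR1C1 alone, P152968, was below 2-fold. All 9 member probes tested had a higher mean in Lamin A/C Kd than in control, with a median log2 fold change of 1.67 against −0.05 over all probes.

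**Figure D1:**
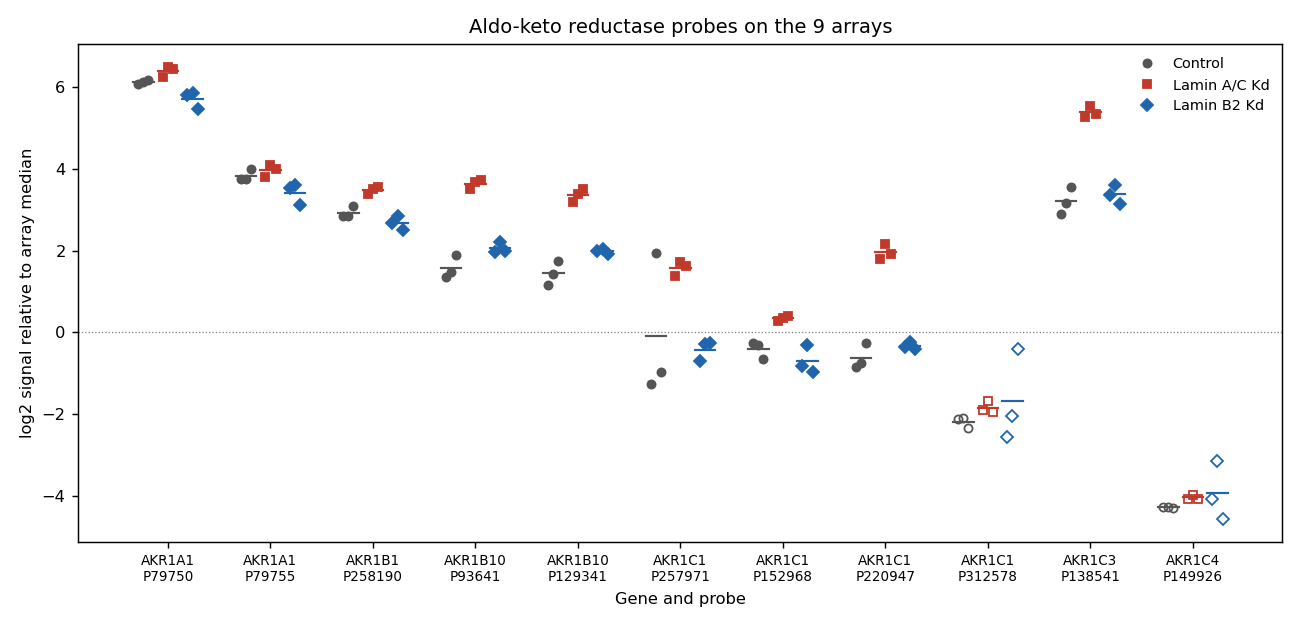
Level of each aldo-keto reductase probe on every array, as log2 signal relative to the array median, for 3 control (circles), 3 Lamin A/C Kd (squares) and 3 Lamin B2 Kd (diamonds) arrays, with a short line at each group mean and open symbols for probes above background on fewer than 3 arrays. The Lamin A/C Kd arrays stand above both other groups for AKR1B10, AKR1C3 and AKR1C1 P220947, and control 2 stands apart for AKR1C1 P257971.

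P220947, which lists AKR1C1 and AKR1C2, stood at −0.85, −0.76 and −0.26 in control, 1.79, 2.16 and 1.91 in Lamin A/C Kd and −0.36, −0.24 and −0.42 in Lamin B2 Kd. The 3 Lamin A/C Kd arrays lay above all other arrays, while Lamin B2 Kd and control overlapped. The log2 fold change in Lamin A/C Kd was 2.58 ± 0.17 (SE, n = 3), or 5.97-fold, number 6 from the top of 33131 probes tested. Against Lamin B2 Kd it was 2.29 ± 0.17, or 4.90-fold.

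The other probes of AKR1C1 gave smaller differences. P257971, also shared with AKR1C2, read −1.27, 1.94 and −0.97 in control, 1.37, 1.72 and 1.62 in Lamin A/C Kd and −0.71, −0.29 and −0.26 in Lamin B2 Kd. Control 2 lay above all 8 other arrays on this probe, although P220947 on the same array did not, and its spot carried no outlier mark. The log2 fold change in Lamin A/C Kd was 1.67 ± 0.69 with all arrays and 2.69 without control replicate 2. On control 2, 33 of 33749 probes exceeded both other controls by at least 2 log2 units, within the 4 to 102 probes that did so on the other arrays of each group.

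P152968, which lists AKR1C1 alone, read −0.26, −0.31 and −0.65 in control, 0.27, 0.36 and 0.40 in Lamin A/C Kd and −0.82, −0.31 and −0.97 in Lamin B2 Kd. The Lamin A/C Kd arrays again lay above all others. The log2 fold change was 0.75 ± 0.18, or 1.68-fold, below the 2-fold line in Lamin A/C Kd against control, and 1.04 ± 0.18 against Lamin B2 Kd. The differences between the AKR1C1 probes move with the genes they list and with their position in the transcript; the part of either was not tested. The fourth probe, P312578, lists no RefSeq transcript and was above background on 1 of 9 arrays.

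AKR1C2 could not be read alone. A pair of probes named LOC100134257 list a transcript that the current table gives to AKR1C2, and both were above background on 0 of 9 arrays. The signals of P220947 and P257971 therefore leave the share of AKR1C2 unknown.

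AKR1C3, the enzyme that forms testosterone and prostaglandin F, had 1 probe, which read 2.90, 3.15 and 3.55 in control, 5.27, 5.54 and 5.34 in Lamin A/C Kd and 3.37, 3.61 and 3.15 in Lamin B2 Kd. The Lamin A/C Kd arrays lay above all others. The log2 fold change was 2.19 ± 0.19 in Lamin A/C Kd, or 4.55-fold, number 19 of 33131 probes, and 2.01 ± 0.19 against Lamin B2 Kd, or 4.03-fold. AKR1C4, the liver form, was above background on 0 of 9 arrays, with signals from −4.57 to −3.16.

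AKR1B10 was read by a pair of probes that list no other gene, and they gave like values. P93641 read 1.35, 1.47 and 1.90 in control, 3.50, 3.67 and 3.72 in Lamin A/C Kd and 1.96, 2.22 and 1.99 in Lamin B2 Kd. P129341 read 1.16, 1.43 and 1.73 in control, 3.19, 3.37 and 3.51 in Lamin A/C Kd and 1.98, 2.04 and 1.92 in Lamin B2 Kd. On both probes the groups did not overlap, with control lowest, Lamin B2 Kd between and Lamin A/C Kd highest. The log2 fold changes in Lamin A/C Kd were 2.06 ± 0.16 (4.16-fold) and 1.92 ± 0.16 (3.78-fold), and against Lamin B2 Kd 1.57 ± 0.16 and 1.38 ± 0.16.

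AKR1B1 and AKR1A1 differed less. AKR1B1, the aldose reductase, read 2.84, 2.84 and 3.08 in control, 3.38, 3.51 and 3.56 in Lamin A/C Kd and 2.68, 2.84 and 2.51 in Lamin B2 Kd, so that Lamin A/C Kd was higher on every array (0.56 ± 0.13, 1.48-fold). AKR1A1, the aldehyde reductase, read 6.08, 6.13 and 6.18 in control, 6.25, 6.50 and 6.45 in Lamin A/C Kd and 5.82, 5.85 and 5.46 in Lamin B2 Kd on P79750. On that probe Lamin A/C Kd lay above and Lamin B2 Kd below every control, with log2 fold changes of 0.27 ± 0.14 and −0.42 ± 0.14. On P79755 the Lamin A/C Kd arrays overlapped control (0.13 ± 0.16) and the Lamin B2 Kd arrays were again all lower (−0.42 ± 0.16).

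**Figure D2:**
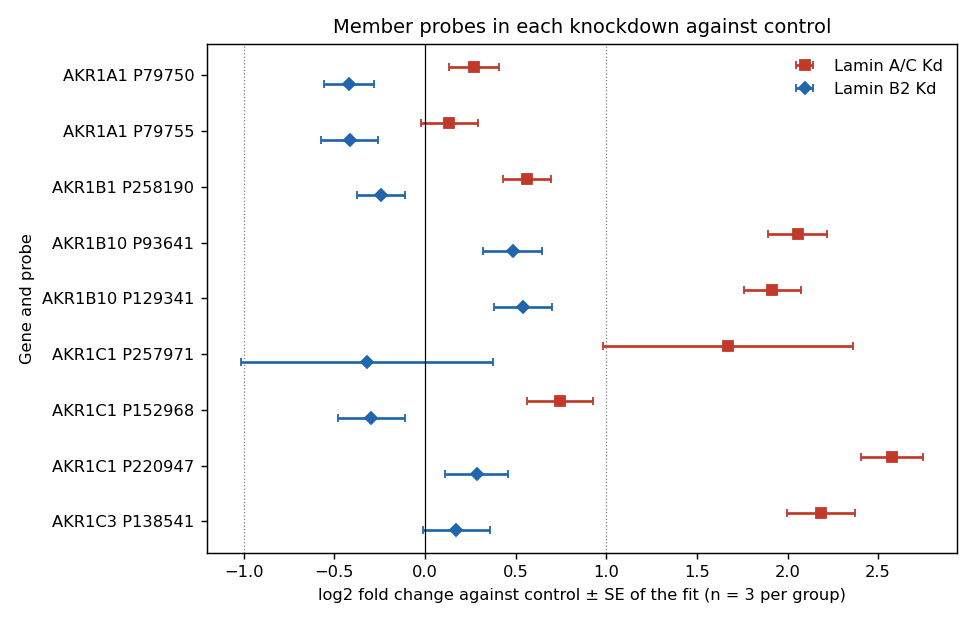
Log2 fold change of each tested member probe in Lamin A/C Kd (squares) and Lamin B2 Kd (diamonds) against control, with bars for the SE of the fit, n = 3 arrays per group, and dotted lines at 2-fold. The Lamin A/C Kd values of P220947, P138541 and the AKR1B10 probes lie between 1.92 and 2.58, while all Lamin B2 Kd values lie between −0.42 and 0.54.

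Lamin B2 Kd was the contrast that did not choose these genes, though it shares its controls with the other. Here 0 of 5 genes met the call rule, against 2.72% of all gene names, and 0 of 5 passed an adjusted p of 0.05 at any fold in limma, against 5.39%. At an unadjusted limma p under 0.05, both probes of AKR1B10 and both of AKR1A1 passed. The share of all probes that pass this line was not counted, so whether the members exceed it is not known. AKR1B10 was higher on all 3 Lamin B2 Kd arrays, by 0.48 ± 0.16 (95% interval 0.12 to 0.85, adjusted p = 0.123) on P93641 and 0.54 ± 0.16 (0.18 to 0.90, adjusted p = 0.0924) on P129341. With a shift by the 75th percentile in place of the median the adjusted p values were 0.0341 and 0.0259. For each probe the limma adjusted p was under 0.05 in 3 of 18 other settings. It was highest without control replicate 1, at 0.318 (P93641) and 0.262 (P129341).

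For the AKR1C genes in Lamin B2 Kd the intervals bound the change. AKR1C3 differed by 0.17 (95% interval −0.25 to 0.59, adjusted p = 0.569) and P220947 by 0.29 (−0.10 to 0.67, adjusted p = 0.332). P152968 differed by −0.30 (−0.71 to 0.12, adjusted p = 0.342), and P257971 by −0.32 with all arrays (−1.89 to 1.25, adjusted p = 0.784) and 0.70 without control replicate 2. All but the last of these intervals exclude a 2-fold change in either direction.

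For AKR1B1 the difference was −0.24 (−0.54 to 0.05, adjusted p = 0.287). AKR1A1 was lower on all 3 Lamin B2 Kd arrays on both probes, with adjusted p values of 0.115 (P79750) and 0.159 (P79755). The share of all probes that lie below control on all 3 arrays was not counted. The median of all probes in this contrast was −0.14 and became 0.06 with a shift by the 75th percentile, and AKR1A1 P79750 then stood at −0.22 and AKR1B1 at −0.05. Calls over all gene names split into 259 higher and 344 lower in Lamin B2 Kd, against 478 and 127 with that shift. In Lamin A/C Kd they were 265 and 378, against 314 and 289.

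The direct comparison of the knockdowns, in which the Lamin A/C Kd arrays also chose the genes, gave 3 of 5 genes called, all higher in Lamin A/C Kd. Over all gene names 5.27% were called in either direction and 3.29% higher, or 720 higher and 432 lower (480 and 600 with the 75th percentile). The median log2 difference was 1.38 over the member probes and 0.04 over all probes. On each of the 9 member probes tested the Lamin A/C Kd arrays lay above all 3 Lamin B2 Kd arrays, as they did on 21% of all 33134 probes tested. AKR1B1 and AKR1A1 P79750 differed by 0.80 ± 0.13 and 0.69 ± 0.14, below 2-fold.

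**Figure D3:**
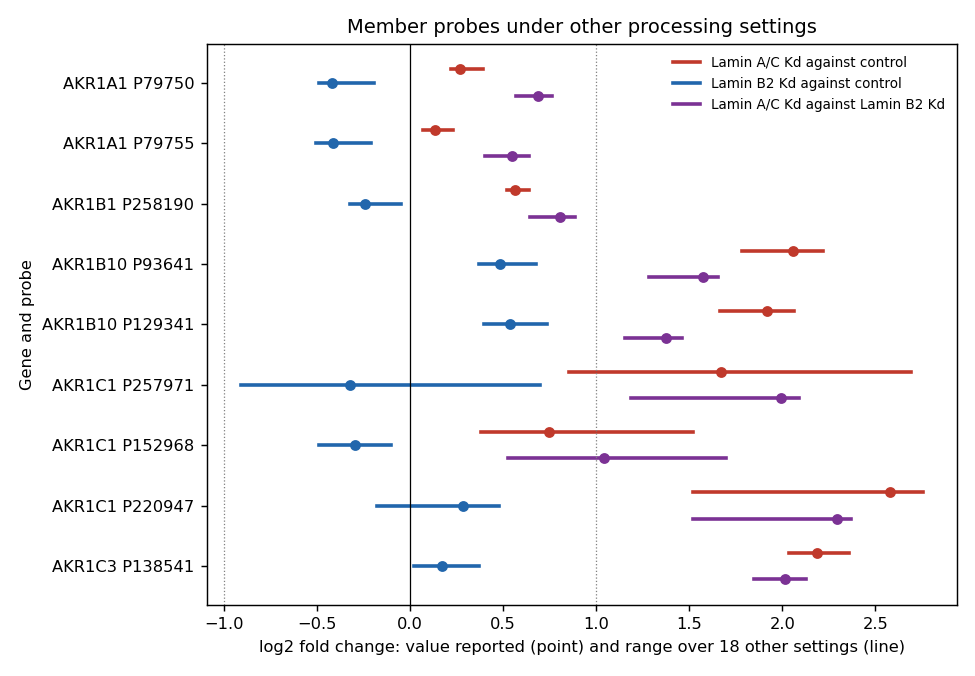
Log2 fold change of each tested member probe in the 3 comparisons (points), with lines from the lowest to the highest value over 18 other settings and dotted lines at 2-fold. The ranges of AKR1C3 and AKR1B10 in Lamin A/C Kd have their lowest value at 1.66, while those of AKR1C1 P257971 and P220947 in Lamin B2 Kd cross 0.

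The promoters of the AKR1C genes on GRCh38.p14 are shown because the AKR1C3 probe and the probes shared by AKR1C1 and AKR1C2 had higher means in Lamin A/C Kd, where the share of AKR1C2 is unknown. RefSeq gave a start site for 6 of the 7 genes (AKR1B10 was not in the table). Each line holds the 120 bases before a start site, 5′ to 3′ on the strand of the gene, with the CCAAT box, which reads in reverse here, in capitals.
AKR1C1, chr10:4963295-4963414, plus strand: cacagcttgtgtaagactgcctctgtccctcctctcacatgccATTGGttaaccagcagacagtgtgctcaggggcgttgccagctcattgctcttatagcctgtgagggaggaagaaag
AKR1C2, chr10:5003858-5003977, minus strand: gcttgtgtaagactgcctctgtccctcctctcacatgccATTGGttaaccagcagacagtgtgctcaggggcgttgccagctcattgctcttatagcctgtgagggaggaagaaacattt
AKR1C3, chr10:5048661-5048780, plus strand: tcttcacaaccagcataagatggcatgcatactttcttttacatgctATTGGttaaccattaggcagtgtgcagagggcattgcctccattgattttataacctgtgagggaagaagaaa
AKR1C3, chr10:5094294-5094413, plus strand: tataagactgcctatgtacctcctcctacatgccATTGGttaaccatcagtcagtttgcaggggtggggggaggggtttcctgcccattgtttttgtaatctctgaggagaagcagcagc
The AKR1C1 and AKR1C2 upstream sequences, aligned without gaps over 246 bases, were the same at 245. AKR1C1 and the AKR1C3 entries shared 53.7 and 58.1% of aligned bases, AKR1C1 and AKR1C4 47.7%, and pairs between the AKR1C genes and AKR1A1 or AKR1B1 from 28.2 to 33.8%. CCAAT was searched on both strands in windows that run from upstream of each start site to just past it. It occurred once in each window of AKR1C1, AKR1C2 and AKR1C3, 73 to 86 bases before the start, while the AKR1C4 and AKR1A1 windows held none. The AKR1B1 windows overlap and share 1 site, which lies 98 bases before 1 start site and after the other. Of all 35116 windows 34.6% held CCAAT. The letters TGACNNNGC, the core of the element that NRF2 binds, and TGANTCA, the AP-1 motif, had 0 matches in the windows of these 6 genes and matches in 13.3 and 7.71% of all windows. The windows are short, that of AKR1C1 being chr10:4963165-4963464. Elements further from a start site were not searched, so the absence of a match says nothing about them.

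Among the neighbors tested within 500 kb of the genes, 1 met the call rule against control. Of 7 neighbors of the AKR1C genes tested, 0 met the call rule with Lamin A/C Kd or with Lamin B2 Kd, against 2.94% of all gene names in the former and 2.72% in the latter. AKR1C8 (AKR1CL1 on the array), which lies between AKR1C3 and AKR1C4, differed by −0.27 from control after Lamin A/C Kd, with an adjusted p of 0.416, and the nearest gene on the other side, AKR1E2 (AKR1CL2 on the array), by 0.04, 0.05 and −1.01 on its probes, the last being the probe on which control 1 stood apart at 2.19. ASB13 was higher below 2-fold in Lamin A/C Kd on 1 of its probes (0.77 ± 0.14, adjusted p = 0.0115) and stood at 0.35 on the other (adjusted p = 0.404). On both probes all Lamin B2 Kd arrays lay below control (−0.46, adjusted p = 0.10, and −0.78, adjusted p = 0.0885). Between the knockdowns ASB13 met the call rule on both probes (1.23, adjusted p = 0.000936, and 1.13, adjusted p = 0.0106), as 1 of the 7 neighbors, against 5.27% of all gene names. Around AKR1A1 0 of 14 genes tested were called in either knockdown, beside the same shares.

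Of 6 neighbors of the AKR1B genes tested, AKR1B15 met the rule in Lamin A/C Kd (2.94% of all gene names did), and 0 did in Lamin B2 Kd (2.72%). Its probe (tcag7.1260 on the array, matched by its transcript) read −1.77, −1.21 and −1.34 in control, 0.01, −0.04 and 0.13 in Lamin A/C Kd and −1.61, −1.34 and 0.09 in Lamin B2 Kd. The Lamin A/C Kd arrays lay above all controls, and Lamin B2 Kd replicate 3 lay among them, apart from the other Lamin B2 Kd arrays. The log2 fold changes were 1.48 ± 0.38 (adjusted p = 0.0431) and 0.49 (adjusted p = 0.431). The probe shares 93.0% of the overlapping bases with AKR1B10 P129341, as shown above, and the part of AKR1B10 transcripts in its signal was not tested.

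**Figure D4:**
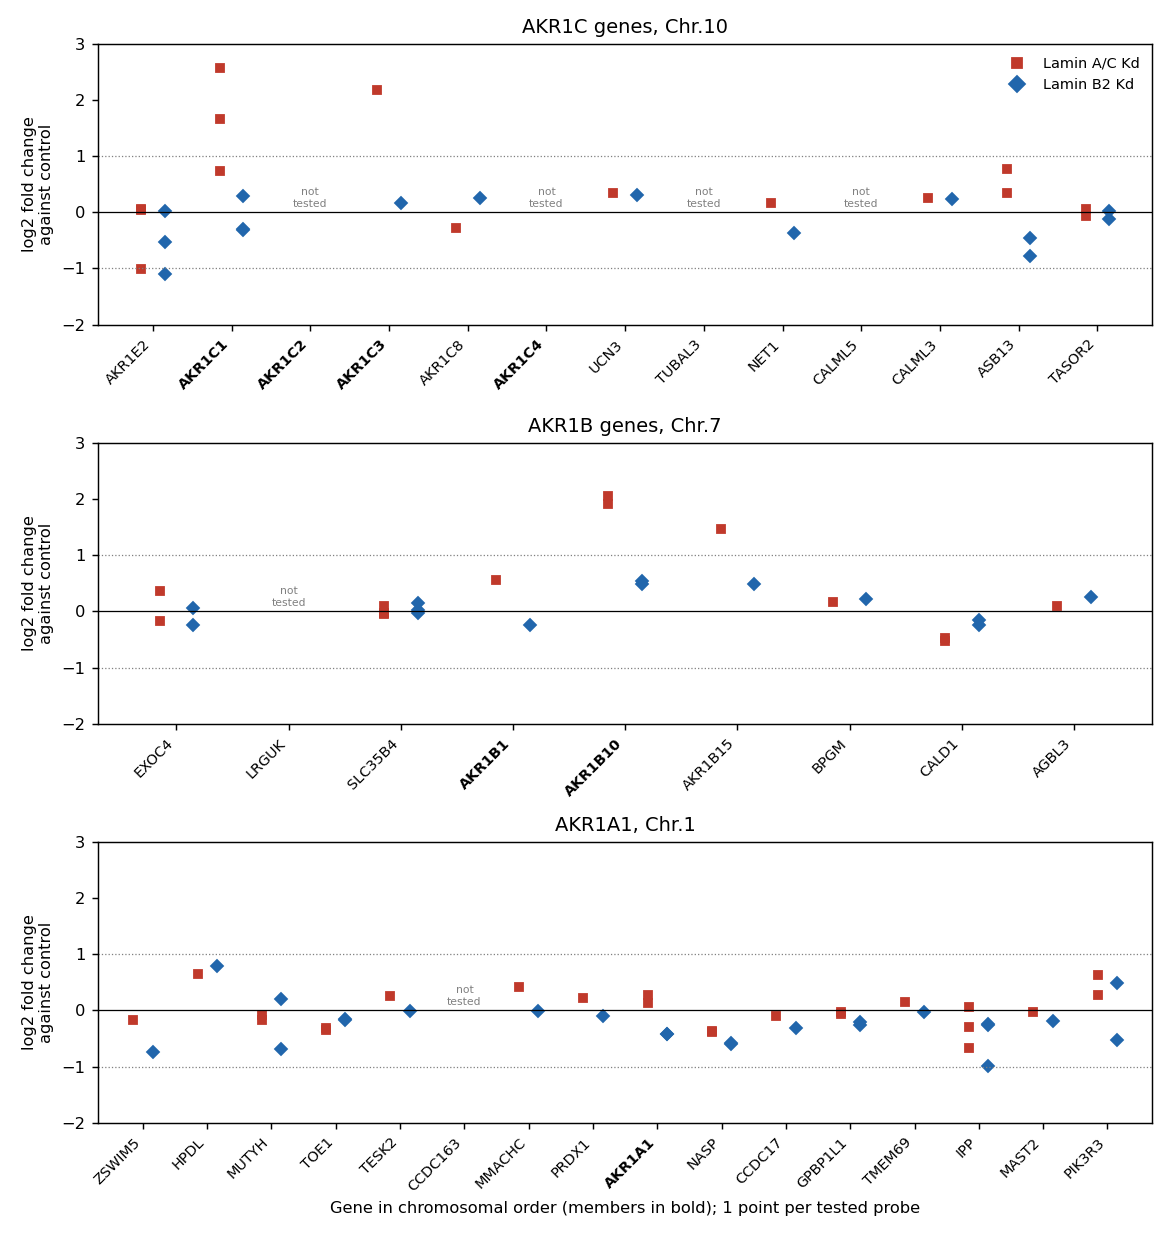
Log2 fold change against control in Lamin A/C Kd (squares) and Lamin B2 Kd (diamonds) for the genes within 500 kb of the AKR1C, AKR1B and AKR1A1 genes in chromosomal order, 1 point per tested probe, members in bold and dotted lines at 2-fold. In Lamin A/C Kd AKR1C3, AKR1B10, AKR1B15 and all AKR1C1 probes but P152968 stand above the upper line, and the AKR1E2 points at −1.01 and −1.09 are the probe on which control 1 stood apart.

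The NRF2 list and the enzyme lists below were chosen with earlier results of these data known. Their counts and p values are therefore a description and no independent test. Among 28 genes of the NRF2 pathway, all of them tested, 3 met the call rule in Lamin A/C Kd, all of them higher, against 2.94% of all gene names. NQO1, a quinone reductase, read 3.89, 3.82 and 4.10 in control, 5.09, 5.19 and 5.18 in Lamin A/C Kd and 4.37, 4.33 and 4.51 in Lamin B2 Kd (1.21 ± 0.12, adjusted p = 0.000987). OSGIN1, an oxidative stress response gene, rose by 1.48 ± 0.18 (adjusted p = 0.00264), and FTL, the ferritin light chain, by 1.13 on each of 2 probes (adjusted p = 0.00264 and 0.00163) and 0.98 on its other probe. By an adjusted p of 0.05 at any fold, 11 of the 28 genes passed, against 11.1% of all gene names, and 10 of these were higher. Below 2-fold these were ABCC3 (0.96), SLC7A11 (0.96), SQSTM1 (0.82), GCLC (0.69), UGT1A6 (0.75), GCLM (0.57) and SRXN1 (0.57), which include the cystine importer and both subunits of the enzyme that starts glutathione synthesis. Other probes gave smaller values: SLC7A11 0.46, GCLC 0.59, GCLM 0.39 (adjusted p = 0.0602) and UGT1A6 0.66 on its brightest. The gene that was lower was GSR on 1 probe (−0.95, adjusted p = 0.0100), while its brighter probe stood at 0.33 (adjusted p = 0.117). HMOX1 stood at 0.90 (adjusted p = 0.172), and the transcripts of the pathway's regulators NFE2L2 and KEAP1 at 0.00 (adjusted p = 0.994) and −0.26 (adjusted p = 0.407). By their brightest probes CES1 (−0.26), PGD (−0.18), TXNRD1 (−0.12) and KEAP1 stood below 0, and the median of the list was 0.34.

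In Lamin B2 Kd 1 of the 28 genes met the call rule (3.57% against 2.72%), and the median was 0.01. This was ME1 on its dimmest probe (1.15, adjusted p = 0.161), where Lamin B2 Kd replicate 3 read 2.26 and the other Lamin B2 Kd arrays 0.49 and 0.32. NQO1 was higher on all 3 arrays at 0.46 ± 0.12 (adjusted p = 0.0625). ABCC3, a bile salt and conjugate exporter, was lower (−0.74, adjusted p = 0.0348), opposite to its sign in Lamin A/C Kd. GSR on the probe named above was lower too (−0.75, adjusted p = 0.0435), with the same sign as in Lamin A/C Kd. The comparisons share their controls.

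**Figure D5:**
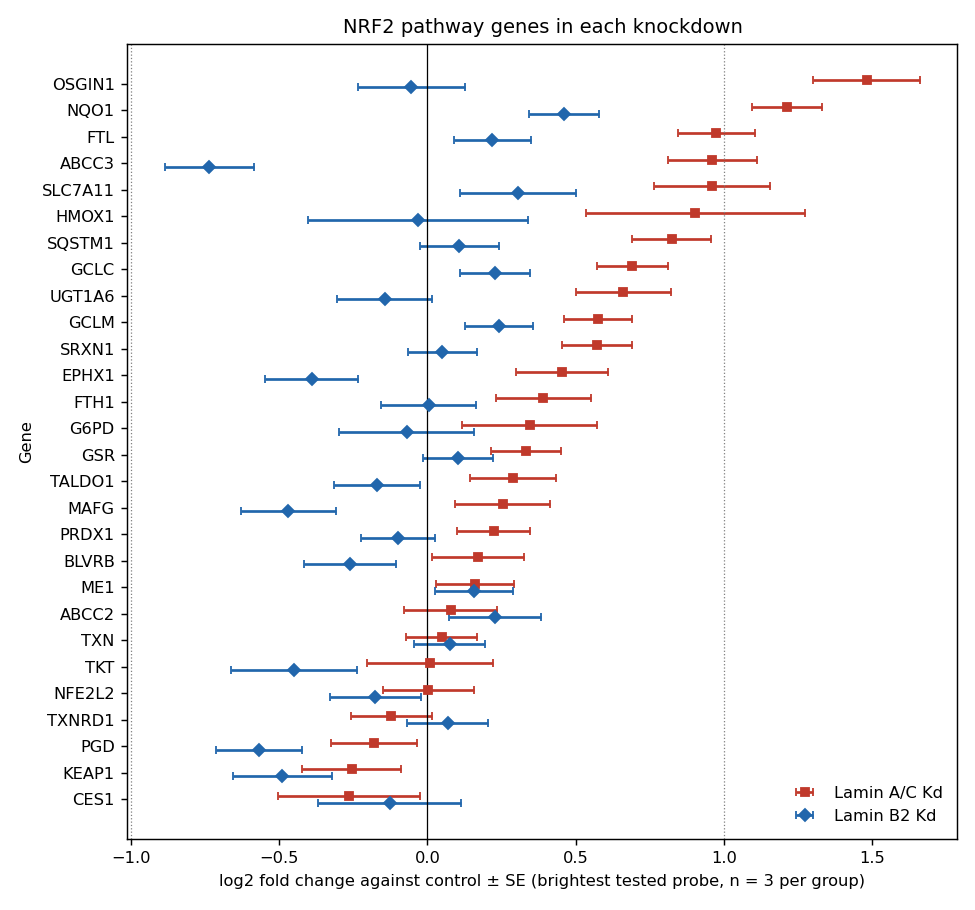
Log2 fold change against control ± SE of 28 NRF2 pathway genes, each by its brightest tested probe, in Lamin A/C Kd (squares) and Lamin B2 Kd (diamonds), n = 3 arrays per group, with dotted lines at 2-fold. In Lamin A/C Kd 24 of the plotted values are above 0 and in Lamin B2 Kd 13, and OSGIN1 and NQO1 lie past 2-fold in Lamin A/C Kd. The medians over all probes were −0.05 and −0.14, and the share of all probes above 0 was not counted.

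A list of other carbonyl and aldehyde enzymes held reductases and also aldehyde dehydrogenases, which oxidize aldehydes. Of 24 tested in Lamin A/C Kd, 0 met the call rule, against 2.94% of all gene names, and 1 passed an adjusted p of 0.05, against 11.1%. This was PTGR1 (LTB4DH on the array, which inactivates leukotriene B and reduces alkenals) at 0.68 ± 0.13 (adjusted p = 0.0134). In Lamin B2 Kd 2 were called, against 2.72% of all gene names, both higher: DHRS3, which reduces retinal (1.42 ± 0.34, adjusted p = 0.0524), and DHRS9, a retinol dehydrogenase (1.05 ± 0.12, adjusted p = 0.00684). DHRS3 read 1.79, 0.47 and 1.85 in control and 2.88, 2.95 and 2.53 in Lamin B2 Kd, so the size of its difference rests in part on control 2. The medians of the list were 0.04 and −0.23, against −0.05 and −0.14 over all probes.

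Of 24 other steroid and prostaglandin enzymes that passed the filter, PTGS2, the inducible cyclooxygenase, passed it only through the knockdown arrays, being above background on 0 control arrays, so its call in each knockdown is no test. It read −1.14, −0.97 and −1.45 in Lamin A/C Kd and −0.77, −1.13 and −1.20 in Lamin B2 Kd. With detection required on all 9 arrays, 0 genes of the list met the call rule in Lamin A/C Kd, against 2.94% of all gene names in the wider filter, and 2 in Lamin B2 Kd, against 2.72%. Both were lower: HSD17B6, which oxidizes androgens (−1.51 ± 0.14, adjusted p = 0.00425), and PTGS1, the constitutive cyclooxygenase (−1.54 ± 0.24, adjusted p = 0.0148). The medians of this list were 0.00 and −0.29.

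The genes whose pattern over the 9 arrays was most like AKR1C1 were sought among 1965 gene names above background on all arrays with an SD of at least 0.5, with Pearson's r as a description. The brightest AKR1C1 probe is P257971, whose pattern carries control 2, and the closest to it were HsapiAK094369 (r = 0.927), KLHL24 (0.896), AI620901 (0.870), LOC374973 (0.811), PROX1 (0.809), HsapiAK094421 (0.802), P2RY6 (0.788) and ATF7IP2 (0.788). Against P220947, a reference chosen after its values were seen, the closest were WNT5A (0.995), ABHD4 (0.993), HsapiAK021503 (0.992), C10orf56 (0.989), AK024898 (0.987), GPX2 (0.986), CYP4F8 (0.984) and PGM2L1 (0.976). Among the members P220947 gave r = 0.996 with AKR1C3, 0.989 with AKR1B10 P93641, 0.901 with AKR1B1 and 0.698 with AKR1A1 P79750. With 3 arrays per group these values mostly reflect the distance between group means, and the arrays share their normalization.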

How the data were processed

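RNA of 9 DLD1 cultures was measured on single-color arrays. The authors deposited 1 scanner file per array, whose processed intensity values were background-subtracted by Agilent Feature Extraction (10.5 per the labels, a later module version per the file headers). They also deposited a table of log2 values, shifted by the 50th percentile and centered per row. Of its 50238 rows of deposited log2 values 20266 are blank and 11504 join several probes, so it served as an alternative. Its Lamin B2 Kd set numbers differ from the titles, and it was used by group.

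The log2 intensity minus the array median was taken as the mean of a probe's spots, outlier spots left out. A probe was tested where at least 0.5 of its spots were well above background on all 3 arrays of a compared group. One limma model covered all 9 arrays (limma 3.58.1, R 4.3.3, the data.table package at version 1.17.8), with Benjamini-Hochberg adjustment over all probes tested. Genes and lists were chosen with earlier results of these data known. Named were all member probes, called genes of the lists and neighbors (up to 6 per list and contrast), and the 8 gene names most like AKR1C1; lamins, markers, genes past the adjusted p, regulators and next neighbors were added after their values were seen. Transcripts were matched to symbols through the RefSeq table of GRCh38.p14, and promoters are from RefSeq. Alternatives were another percentile, quantile and normexp (offset 50) normalization, the authors' table, other detection filters, replicate and slide blocks, 2-group fits, adjusted p and leaving out each array. The steps were tested on simulated data. Precision is limited by 3 arrays per group.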

Additional observations from a re-analysis of the deposited data

Results flagged for a closer look

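The AKR1C1 probe P312578 was in no comparison, because it was above background on 1 array. On Lamin B2 Kd replicate 3 it read −0.41, while the 3 controls, where it was below background, read −2.13, −2.10 and −2.33, and the other Lamin B2 Kd arrays −2.57 and −2.04. The probe lists no RefSeq transcript. That array alone was on the second slide, and the part of the slide was not tested.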

How the results depend on the processing

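The counts of member genes called (3 in Lamin A/C Kd, 0 in Lamin B2 Kd and 3 between the knockdowns) were the same under all 19 alternatives, leaving out each array included. Of 486 values of single member probes under the alternatives, 465 kept their direction and side of the call rule, and 2 changed sign, both in Lamin B2 Kd and neither called: P257971 (0.70 without control replicate 2) and P220947 (−0.18 in the authors' table, which joins all AKR1C1 probes in 1 row). P257971 in Lamin A/C Kd missed the call under 12 alternatives, with values from 0.86 (normexp) to 2.69 (without control replicate 2). P152968 was past 2-fold in Lamin A/C Kd in the authors' table alone (1.52).

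For the NRF2 genes in Lamin A/C Kd the count of 3 became 5 with the 75th percentile and with quantile normalization, and 3 to 5 on leaving out 1 array (5 on omitting Lamin A/C Kd replicate 2 or control replicate 1 or 2). In Lamin B2 Kd the count of 1 became 0 with normexp, the authors' table, the slide block, the 2-group fit and the adjusted p, and 0 to 1 on leaving out 1 array (0 on omitting Lamin B2 Kd replicate 3 or control replicate 1 or 2). For the carbonyl enzymes the count of 0 in Lamin A/C Kd became 1 without a filter and 0 to 1 on leaving out 1 array (1 on omitting Lamin A/C Kd replicate 3 or control replicate 2), and the count of 2 in Lamin B2 Kd became 1 with normexp, the slide block and the adjusted p, and 1 to 2 on leaving out 1 array (1 without Lamin B2 Kd replicate 3). For the steroid enzymes the counts hold PTGS2, which was not above background in control. The count of 1 in Lamin A/C Kd became 0 with normexp and with detection on all 9 arrays, and the count of 3 in Lamin B2 Kd became 0 with normexp and 3 to 5 on leaving out 1 array (5 without Lamin B2 Kd replicate 1). These counts do not show whether the same genes were called each time. The cause was not tested.

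Over all gene names the calls fell from 642, 602 and 1152 (Lamin A/C Kd, Lamin B2 Kd, between knockdowns) to 218, 86 and 326 with normexp, and in Lamin B2 Kd to 375 with the slide block, 364 with detection on all 9 arrays and 283 with the adjusted p. Without a filter they were 946, 1438 and 1900, in Lamin A/C Kd 401 in the authors' table, and without Lamin B2 Kd replicate 1 or 2 they were 1320 and 1374 in Lamin B2 Kd and 1958 and 1816 between knockdowns.

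Same-numbered arrays of different groups deviated together with r from −0.09 to 0.15, over 0.1 in 1 of 9 pairs, so the numbers were not taken as pairs. With a replicate block the member counts were 3, 0 and 3, and the list counts did not change.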

Other observations

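On the AKR1E2 probe P1322 (AKR1CL2 on the array) control 1 read 2.19 and the other controls −0.71 and −0.10, and its other probes in the 3 controls read from 0.17 to 1.21. This is a second probe of the region on which 1 control array stands apart, after AKR1C1 P257971 and control 2.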
